A study of Mus musculus with 6 samples.

Results

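The 10 genes described here build centrioles or carry the signal that faulty centrosomes and slow mitoses send to p53: Plk4, Stil, Sass6, Cenpj, Cep152, Cep192, Cep63, Tubg1, Trp53bp1 and Usp28. They were taken by symbol from a table of 54532 mouse genes, where all 10 were listed and all 10 passed the filter on low values. RNA was compared between 3 libraries of p53-deficient haploid embryonic stem cells and 3 libraries of wild-type (WT) haploid embryonic stem cells, all of strain 129SV. Such cells hold 1 copy of each chromosome and drift towards diploidy in culture, and the study concerns that drift when apoptosis is prevented. The sample titles call the mutant P53ki, and the genotype field gives it as lacking p53. The table's columns call the mutant P53_KO and were matched to titles by cell name and final number. The titles of all WT libraries share a code before the final number, which the mutant titles lack and the labels do not explain. It may name a shared line or clone, and no label states a clone, line or culture for a replicate. The p-values therefore reflect only how far libraries of a group vary, possibly for technical reasons, and line differences and p53 loss cannot be told apart. Ploidy and centrosome number were not measured.

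A centriole duplicates once in each cell cycle. The kinase PLK4 starts the process on scaffolds made by CEP152 and CEP192, with CEP63 as the partner of CEP152. STIL binds and activates PLK4 and brings in SASS6, which builds the cartwheel that gives the new centriole its symmetry, and CENPJ (also called CPAP) lengthens its microtubule wall. Gamma-tubulin, the product of Tubg1, nucleates microtubules around the centrioles. In mammalian cells that lose centrioles or spend too long in mitosis, 53BP1 (encoded by Trp53bp1) and the deubiquitinase USP28 join p53 and stabilise it, which raises p21 and stops the cycle.

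Reads in listed genes numbered 11536412 to 21218976 per p53-deficient library and 17065841 to 20331905 per WT library. The 10 genes had between 238 and 2868 reads per p53-deficient library and between 217 and 2804 per WT library. Trp53 measured 9.71, 9.71 and 9.98 FPKM (fragments normalised for both the length of the gene and the depth of sequencing) in p53-deficient libraries, against 64.5, 69.8 and 69.6 FPKM in WT libraries. Of 10 stem cell markers, all above 0, 4 were higher and 5 lower, and they summed to 2730 to 2840 FPKM in p53-deficient libraries and 3490 to 3560 FPKM in WT libraries. Dppa5a, the most abundant of them, weighs most in that sum and averaged 1075 FPKM in p53-deficient cells and 2007 FPKM in WT cells. The sum is therefore no measure of the markers as a set. Utf1 rose most, to 302.5 FPKM in p53-deficient cells against 61.6 FPKM in WT cells. Pou5f1 (Oct4) averaged 407 FPKM in p53-deficient cells and 371 FPKM in WT cells, and Nanog 221 FPKM in p53-deficient cells and 330 FPKM in WT cells. Fibroblast markers differed between the groups: their summed level was 517 to 545 FPKM in p53-deficient libraries and 1830 to 1840 FPKM in WT libraries. Each of the 18 tested markers of that list of 20 fell, and none of the 20 was at 0 in every library. Lgals1, the most abundant of them in WT cells, averaged 111 FPKM in p53-deficient cells and 389 FPKM in WT cells. A list of 4 Y-linked genes summed to 0.33 to 0.395 FPKM in p53-deficient libraries and 3.51 to 3.94 FPKM in WT libraries. In these bulk libraries fewer cells of a type and less RNA per cell cannot be told apart, and the part of the fibroblast and Y-linked differences in the results on the 10 genes was not tested.

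Promoters are shown for the 4 genes with the largest differences, so that the letters near their starts can be read beside the values that follow. Each window runs from 250 bases before to 50 bases after a RefSeq transcript start on GRCm38.p6, which is a C57BL/6J sequence and not that of strain 129SV. Capitals mark matches to letters known from cell cycle promoters, read on both strands: TTTGAA (the CHR element), CCAAT, and the E2F-type letters TTCCCGC and TTGGCGC, of which the last can overlap a reversed CCAAT. The windows lie at chr3:116594708-116595007 on the plus strand for Sass6, at chr14:56571797-56572096 on the minus strand for Cenpj, at chr2:125625064-125625363 on the minus strand for Cep152 and at chr4:114999868-115000167 on the plus strand for Stil.
Sass6: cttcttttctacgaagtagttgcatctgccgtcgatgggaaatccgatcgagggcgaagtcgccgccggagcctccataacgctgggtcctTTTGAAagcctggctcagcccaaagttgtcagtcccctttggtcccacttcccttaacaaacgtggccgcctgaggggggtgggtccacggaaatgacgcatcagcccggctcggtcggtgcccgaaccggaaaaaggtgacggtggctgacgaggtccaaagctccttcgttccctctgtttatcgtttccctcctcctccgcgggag
Cenpj: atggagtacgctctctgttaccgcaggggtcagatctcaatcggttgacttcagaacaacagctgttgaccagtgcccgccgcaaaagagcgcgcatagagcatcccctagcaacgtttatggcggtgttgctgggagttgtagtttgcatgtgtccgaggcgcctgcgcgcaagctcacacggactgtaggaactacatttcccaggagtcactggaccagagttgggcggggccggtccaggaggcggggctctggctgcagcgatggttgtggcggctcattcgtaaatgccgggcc
Cep152: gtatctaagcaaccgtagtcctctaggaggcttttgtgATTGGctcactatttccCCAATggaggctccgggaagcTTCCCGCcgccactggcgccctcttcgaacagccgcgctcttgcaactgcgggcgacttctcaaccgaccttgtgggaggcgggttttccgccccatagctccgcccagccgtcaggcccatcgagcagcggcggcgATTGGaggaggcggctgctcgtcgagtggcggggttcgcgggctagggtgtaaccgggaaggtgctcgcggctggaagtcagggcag
Stil: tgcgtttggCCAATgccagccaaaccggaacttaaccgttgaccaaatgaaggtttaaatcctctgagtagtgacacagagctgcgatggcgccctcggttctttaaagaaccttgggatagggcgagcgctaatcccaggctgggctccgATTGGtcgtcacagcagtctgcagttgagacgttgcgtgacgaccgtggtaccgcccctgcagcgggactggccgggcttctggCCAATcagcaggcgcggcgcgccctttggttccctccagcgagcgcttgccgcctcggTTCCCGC

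RefSeq promoters were found for 8 of the 10 genes, all but Cep192 and Tubg1. Sass6 was the only 1 of the 8 with TTTGAA, which 17.8% of 32544 promoter windows of the same length hold. CCAAT was present in 3 of the 8 (Stil, Cep152 and Usp28), against 37.4% of all windows. TTCCCGC was present in 3 of the 8 (Plk4, Stil and Cep152), against 4.63% of all windows, and TTGGCGC in none, against 2.47%. Stil and Cep152 each held 3 CCAAT letters and 1 TTCCCGC, and no matches overlapped. The windows of Cenpj, Cep63 and Trp53bp1 held none of the letters. For Cenpj and Cep63 the RefSeq start (56571846 and 102626124) lay inside the gene as deposited. Their outer ends (56575425 and 102626534) fall outside these windows. These matches describe a short stretch of sequence, and binding was not measured.

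**Figure D1:**
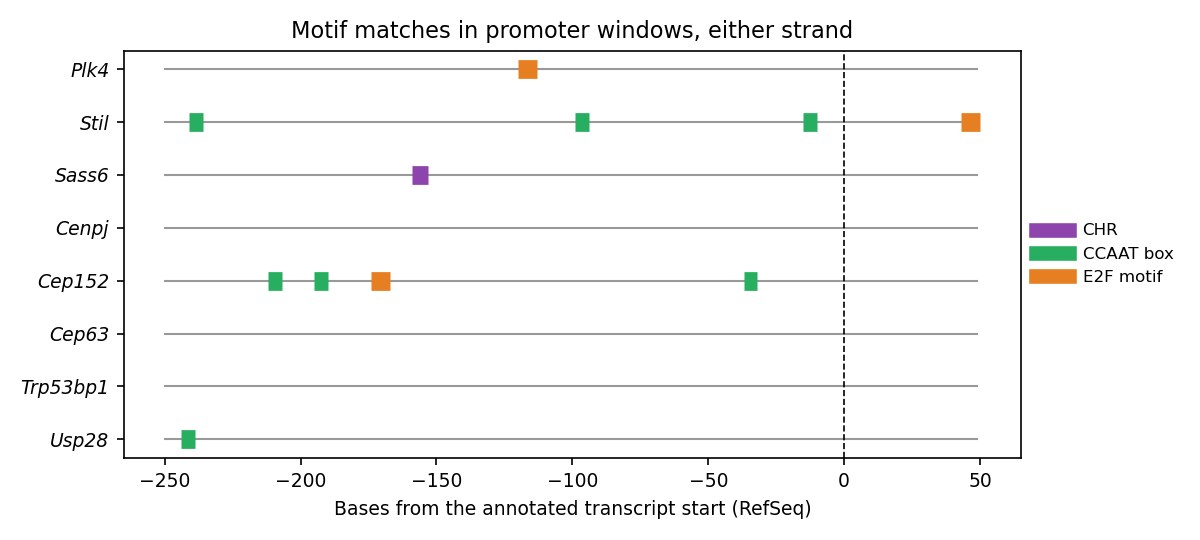
Matches to the CHR, CCAAT and E2F letters on either strand in the RefSeq promoter windows of 8 genes, by distance in bases from the annotated transcript start (dashed line). Stil and Cep152 hold 4 matches each, and Cenpj, Cep63 and Trp53bp1 hold none.

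Most of the centriole genes were modestly higher in p53-deficient cells, while the kinase that starts duplication and the deubiquitinase of the surveillance complex did not pass the test. With limma on log2(FPKM + 1) and adjustment over 15144 genes, 7 of the 10 genes were called higher at an adjusted p under 0.05: Sass6, Cenpj, Cep152, Stil, Tubg1, Cep63 and Trp53bp1. None was called lower, also with voom weights (0), and 0 were lower at an unadjusted p under 0.05. Plk4, Cep192 and Usp28 were not called. Of all tested genes, 66.5% were called, 35.3% higher and 31.3% lower. The median log2 difference of the 10 genes was 0.25, beside 0.03 over all tested genes. That background depends on level, and was 0.097 over the 7752 genes of mean FPKM at least 5. The 7 called genes were 1.11 to 1.68 times as high in p53-deficient as in WT cells by mean FPKM, and none reached 2-fold on the log2 scale, which 9.72% of all tested genes did. In 8 of the 10 genes, Plk4 included, every p53-deficient library lay above every WT library, which held for 37.7% of all tested genes. None lay wholly below, as 33.7% of all tested genes did. After each library was scaled by its median log2 ratio, 5 of the 10 were higher and 1 (Usp28) lower, and over all genes 4258 were higher and 5611 lower, in place of 5341 and 4733.

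**Figure D2:**
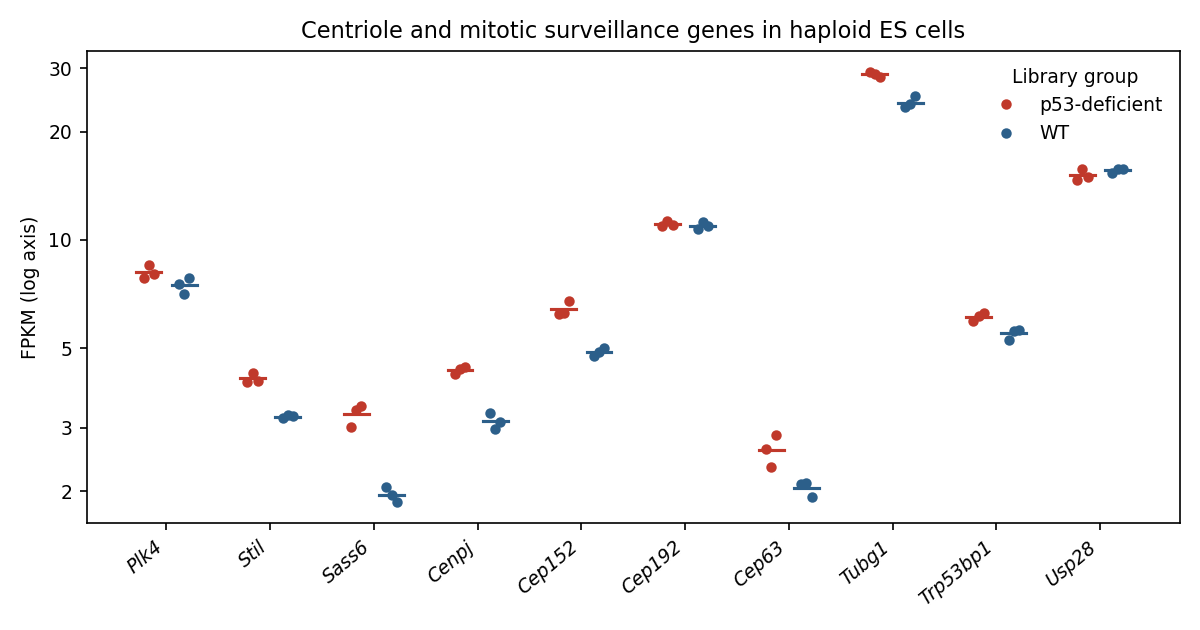
FPKM of the 10 genes in each library (points) with group means (bars) on a log axis, p53-deficient in red and WT in blue. Sass6 shows the widest gap, at 3.01 to 3.46 FPKM in p53-deficient and 1.87 to 2.05 FPKM in WT libraries, and the groups overlap for Cep192 and Usp28.

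Sass6, on chromosome 3 (mm10, 116594982 to 116631004, plus strand; ENSMUSG00000027959), encodes the cartwheel protein and differed most. It measured 3.01, 3.37 and 3.46 FPKM in p53-deficient libraries, against 2.05, 1.95 and 1.87 FPKM in WT libraries. The lowest p53-deficient library stood well above the highest WT library. The means were 3.28 ± 0.237 FPKM in p53-deficient and 1.96 ± 0.0906 FPKM in WT cells (SD, n = 3 each), a log2 difference of 0.53 with SE 0.0599 (limma adjusted p = 0.000269). Pooled reads numbered 1000 in p53-deficient and 688 in WT libraries, a depth-adjusted ratio of 1.67 with a 95% exact binomial interval of 1.51 to 1.84 that covers counting error only. Sass6 shares 389 exon bases with Trmt13, a gene for a tRNA methyltransferase on the opposite strand, and the library kit is not stated to mark strand. Gm42893, an annotated gene on the opposite strand that shares 1502 exon bases with Sass6, was listed at 0 in every library. Trmt13 averaged 2.05 ± 0.0322 FPKM in p53-deficient and 1.67 ± 0.11 FPKM in WT cells (log2 difference 0.19, limma adjusted p = 0.0197), and which gene the shared reads came from cannot be told apart.

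Stil, on chromosome 4 (115000159 to 115043196, plus strand; ENSMUSG00000028718), encodes the protein that links PLK4 to the cartwheel. It measured 4.04, 4.27 and 4.06 FPKM in p53-deficient libraries, against 3.19, 3.26 and 3.24 FPKM in WT libraries. Its WT libraries lay close together and the groups did not overlap. The log2 difference was 0.28 with SE 0.0415 (limma adjusted p = 0.00106).

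Plk4, on chromosome 3 (40800019 to 40816883, plus strand; ENSMUSG00000025758), encodes the kinase that STIL activates. It measured 7.84, 8.51 and 8.03 FPKM in p53-deficient libraries, against 7.54, 7.07 and 7.83 FPKM in WT libraries. The groups nearly touched, though every p53-deficient library was above every WT library. The log2 difference of 0.11 had a 95% interval of -0.01 to 0.22 and did not pass (limma adjusted p = 0.0944). The pooled-read ratio was 1.08 (95% exact binomial interval 1.02 to 1.13, counting error only). A processed copy of Plk4 on chromosome 13, Gm9742, which matches at 94.1% identity over 1410 bases, was at most 0.0621 FPKM in any library.

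Cenpj, on chromosome 14 (56526761 to 56575425, minus strand; ENSMUSG00000064128), encodes the protein that elongates the centriole wall. It measured 4.24, 4.39 and 4.43 FPKM in p53-deficient libraries, against 3.30, 2.99 and 3.11 FPKM in WT libraries. All p53-deficient values were higher than all WT values, with a log2 difference of 0.37 and SE 0.0467 (limma adjusted p = 0.000445). The means were 4.35 ± 0.0984 FPKM in p53-deficient and 3.13 ± 0.159 FPKM in WT cells (SD, n = 3 each). Its head-to-head neighbour Parp4 starts 194 bases from the outer end of Cenpj as deposited, which is not the RefSeq start of the promoter printed above (56571846, inside the gene). Parp4 averaged 1.51 ± 0.139 FPKM in p53-deficient and 1.66 ± 0.116 FPKM in WT cells and did not pass (limma adjusted p = 0.303).

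The scaffolds that recruit PLK4 did not move together. Cep152, on chromosome 2 (125563088 to 125625113, minus strand; ENSMUSG00000068394), measured 6.23, 6.27 and 6.75 FPKM in p53-deficient libraries, against 4.77, 4.88 and 4.99 FPKM in WT libraries. The groups were well apart, with a log2 difference of 0.33 and SE 0.0429 (limma adjusted p = 0.000502). Cep192, on chromosome 18 (67800107 to 67885170, plus strand; ENSMUSG00000024542), measured 10.9, 11.3 and 11.0 FPKM in p53-deficient libraries, against 10.7, 11.2 and 10.9 FPKM in WT libraries. Its groups lay over each other. The difference of 0.01 had a 95% interval of -0.06 to 0.09 on the log2 scale (limma adjusted p = 0.697), which excludes a change of the size seen for Cep152.

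Cep63, on chromosome 9 (102584588 to 102626534, minus strand; ENSMUSG00000032534), encodes the partner of CEP152 and was the lowest of the 10 genes in p53-deficient cells. It measured 2.62, 2.34 and 2.88 FPKM in p53-deficient libraries, against 2.09, 2.10 and 1.93 FPKM in WT libraries. The p53-deficient libraries were spread more widely than the WT libraries, and the groups did not overlap. The log2 difference was 0.24 with SE 0.0698 (limma adjusted p = 0.0192). That call was lost after scaling by the median log2 ratio (limma adjusted p = 0.0638), and limma adjusted p was 0.0517 without p53-deficient replicate 1, 0.0534 without p53-deficient replicate 3 and 0.063 without WT replicate 3. Cep63 shares 239 exon bases at its start with Anapc13, a gene for a subunit of the anaphase-promoting complex on the opposite strand, which averaged 15.3 ± 2.00 FPKM in p53-deficient and 14.9 ± 0.917 FPKM in WT cells and did not pass (limma adjusted p = 0.783).

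Tubg1, on chromosome 11 (101119938 to 101126419, plus strand; ENSMUSG00000035198), was the most abundant of the 10. It measured 29.2, 29.0 and 28.3 FPKM in p53-deficient libraries, against 23.4, 23.8 and 25.1 FPKM in WT libraries. The groups were apart by more than either spread, with a log2 difference of 0.25 and SE 0.0333 (limma adjusted p = 0.000602). Its paralogue Tubg2, which matches at 93.1% identity over 1368 bases and whose reads may be hard to part from those of Tubg1, was low, at 0.136, 0.148 and 0.0646 FPKM in p53-deficient libraries and 0.429, 0.376 and 0.277 FPKM in WT libraries, and was not tested. Retreg3, which encodes a receptor for turnover of the endoplasmic reticulum, starts 45 bases upstream on the opposite strand and averaged 18.8 ± 0.586 FPKM in p53-deficient and 14.6 ± 0.306 FPKM in WT cells (log2 difference 0.35, limma adjusted p = 0.000117).

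The surveillance pair showed a small rise in 53BP1 message and no called difference in USP28. Trp53bp1, on chromosome 2 (121193281 to 121271407, minus strand; ENSMUSG00000043909), measured 5.93, 6.13 and 6.25 FPKM in p53-deficient libraries, against 5.28, 5.59 and 5.62 FPKM in WT libraries. The groups did not overlap, though the gap was narrow, and the log2 difference was 0.13 with SE 0.04 (limma adjusted p = 0.0256). After scaling by the median log2 ratio the difference was 0.05 and not called (limma adjusted p = 0.374). The call was also lost without p53-deficient replicate 2 (limma adjusted p = 0.0593), p53-deficient replicate 3 (0.0751), WT replicate 1 (0.0829) or WT replicate 2 (0.0508). Trp53bp1 shares 2130 exon bases, 15.0% of its exon length, with Tubgcp4, which converges on its end from the opposite strand and encodes a subunit of the gamma-tubulin ring. Tubgcp4 averaged 3.501 ± 0.111 FPKM in p53-deficient and 2.86 ± 0.0959 FPKM in WT cells (log2 difference 0.22, limma adjusted p = 0.00473), and reads from the shared bases cannot be told apart without strand.

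Usp28, also on chromosome 9 (48985375 to 49042517, plus strand; ENSMUSG00000032267), measured 14.7, 15.7 and 15.0 FPKM in p53-deficient libraries, against 15.4, 15.8 and 15.8 FPKM in WT libraries. The groups overlapped and the means were 15.1 ± 0.54 FPKM in p53-deficient and 15.6 ± 0.232 FPKM in WT cells (SD, n = 3 each). The log2 difference of -0.04 had a 95% interval of -0.12 to 0.04 (limma adjusted p = 0.275). Median log2 ratio scaling gave -0.14 and a call of lower (limma adjusted p = 0.0127), as did quantile normalization, at -0.10 (limma adjusted p = 0.0408).

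**Figure D3:**
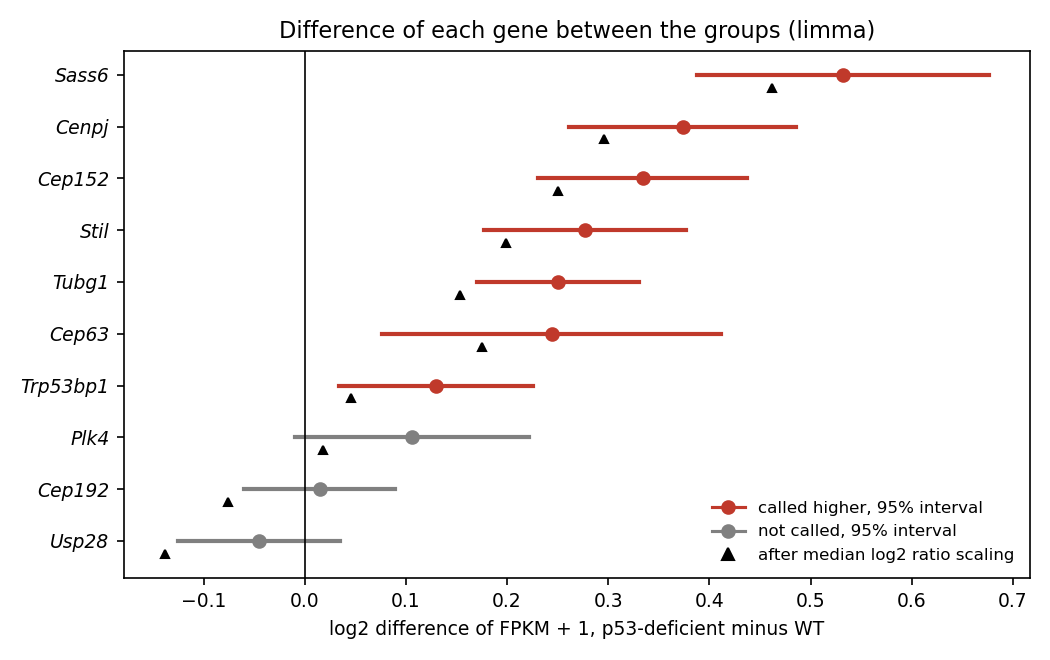
Log2 difference of FPKM + 1 between p53-deficient and WT libraries for each gene, with its 95% interval from limma (red, called higher; grey, not called), and the value after scaling by the median log2 ratio (triangles). Sass6 is highest at 0.53 and Usp28 lowest at -0.04, and scaling moves every gene to the left.

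Levels per length followed nearly the same order in both groups. From high to low, p53-deficient cells had Tubg1, Usp28, Cep192, Plk4, Cep152, Trp53bp1, Cenpj, Stil, Sass6 and Cep63. In that order the library ranges of neighbours overlapped between Cep152 and Trp53bp1 and between Cenpj and Stil. In WT cells the order was Tubg1, Usp28, Cep192, Plk4, Trp53bp1, Cep152, Stil, Cenpj, Cep63 and Sass6, and the ranges overlapped between Stil and Cenpj and between Cep63 and Sass6. USP28 message stood 2nd in both groups, at the 75.1st percentile of mean FPKM among tested genes, and Sass6 stood at the 34.4th.

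Because Sass6 differed more than Plk4 and Cep152 more than Cep192, the levels of these genes relative to each other differed between the groups. Ratios of FPKM taken within each library are free of the library's total, and the 6 pairs were chosen after the values were seen, so they are given with no test. Sass6 over Plk4 was 0.385, 0.395 and 0.431 in p53-deficient libraries, against 0.272, 0.276 and 0.239 in WT libraries. Sass6 over Stil, the cartwheel protein against its recruiter, averaged 0.796 ± 0.0537 in p53-deficient and 0.607 ± 0.0335 in WT cells (SD, n = 3 each). Cep152 over Cep192 averaged 0.58 ± 0.0297 in p53-deficient and 0.446 ± 0.0113 in WT cells. In all of these pairs every p53-deficient library was above every WT library. Plk4 over Stil ran the other way, at 1.94, 1.99 and 1.98 in p53-deficient libraries and 2.37, 2.17 and 2.42 in WT libraries. Trp53bp1 over Usp28 was 0.403, 0.39 and 0.418 in p53-deficient libraries, against 0.343, 0.354 and 0.356 in WT libraries. Cep63 over Cep152, the partners of the scaffold ring, averaged 0.406 ± 0.0293 in p53-deficient and 0.419 ± 0.0285 in WT cells, with overlapping groups.

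**Figure D4:**
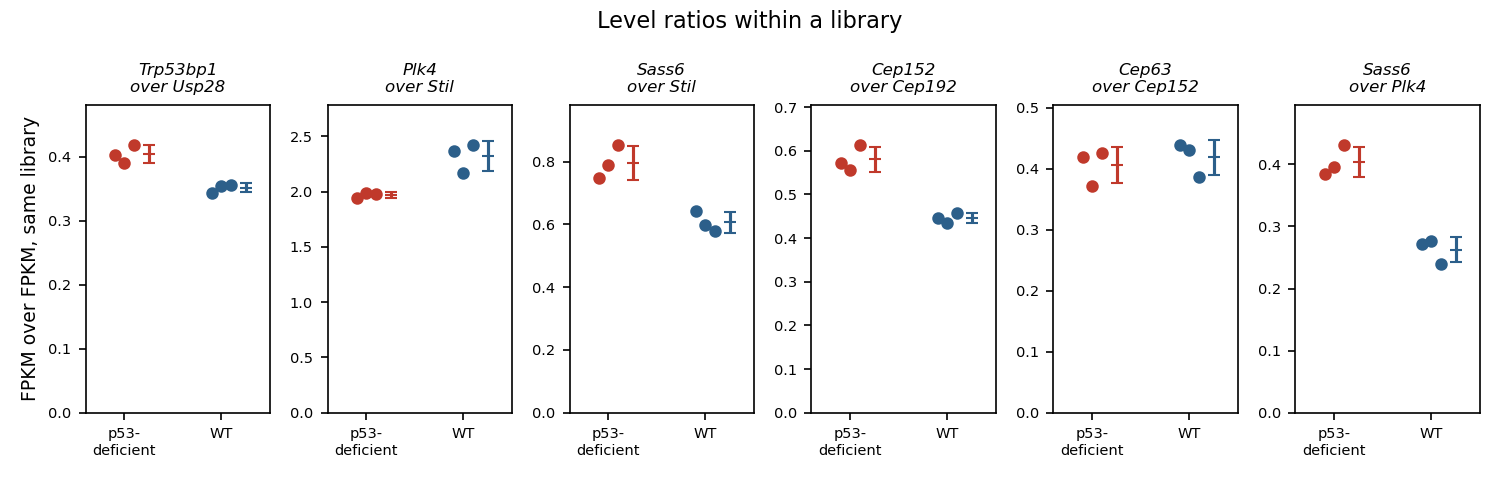
FPKM of a gene over FPKM of another in the same library for 6 pairs, with each library as a point and the group mean ± SD (n = 3) beside it. Sass6 over Plk4 averages 0.404 in p53-deficient and 0.262 in WT libraries, and Cep63 over Cep152 overlaps between the groups.

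The 10 genes lie on 7 chromosomes. The median log2 difference over all tested genes of those chromosomes ran from -0.01 to 0.07, below the differences of the 7 called genes. Chromosome 14, which holds Cenpj, had a median of 0.05, and chromosome 3, which holds Sass6 and Plk4, 0.01.

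Other genes of the centriole cycle moved in both directions. Of 23 tested genes in a list of 26 centriole genes, 9 rose and 7 fell in p53-deficient cells, with a median log2 difference of 0.02, beside 35.3% higher and 31.3% lower over all genes. The counts were 6 higher and 8 lower after scaling by the median log2 ratio. Cetn2, which encodes the calcium-binding protein centrin 2, rose to 38.1 ± 0.599 FPKM in p53-deficient cells, against 25.5 ± 0.857 FPKM in WT cells (limma adjusted p = 1.01e-05). Nek2, the kinase that loosens the link between centrosomes, rose to 22.0 ± 0.273 FPKM, against 15.4 ± 0.754 FPKM in WT cells (limma adjusted p = 4.89e-05). Cep76, which restrains centriole reduplication in human cells, fell to 8.25 ± 1.08 FPKM, against 12.7 ± 0.216 FPKM in WT cells (limma adjusted p = 0.000776). Ppp1r35, a centriole elongation factor, averaged 16.7 ± 1.92 FPKM in p53-deficient and 17.2 ± 1.00 FPKM in WT cells and did not pass (limma adjusted p = 0.673).

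Among 12 genes of the distal appendages and the cilium base, 4 were higher and 4 lower (33.3% each), near the 35.3% and 31.3% of all tested genes, with a median log2 difference of -0.09. Nin (ninein), which anchors microtubules at the mother centriole, fell to 1.24 ± 0.0747 FPKM in p53-deficient cells, against 2.84 ± 0.078 FPKM in WT cells, a log2 difference of -0.78 (limma adjusted p = 2.75e-05). Odf2, another gene of the mother centriole's appendages, fell to 17.8 ± 0.258 FPKM, against 29.7 ± 0.441 FPKM in WT cells (limma adjusted p = 1.47e-06). Ofd1, which controls centriole length, rose to 18.2 ± 0.292 FPKM, against 13.5 ± 0.531 FPKM in WT cells (limma adjusted p = 7.82e-05). Cep83 averaged 7.002 ± 0.179 FPKM in p53-deficient and 7.03 ± 0.327 FPKM in WT cells (limma adjusted p = 0.949). The summed fibroblast markers, at 517 to 545 FPKM in p53-deficient and 1830 to 1840 FPKM in WT libraries, were lower in the same libraries as Nin and Odf2, and their part in those falls was not tested.

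The pericentriolar and gamma-tubulin ring genes were called at similar rates: of 22 tested, 7 were higher (31.8%) and 8 lower (36.4%), near the 35.3% and 31.3% of all tested genes. Their median log2 difference was -0.08, and the counts were 5 higher and 11 lower after scaling by the median log2 ratio. Augmin seeds new microtubules on old ones in the spindle, and of its 8 tested subunits 5 fell, 1 (Haus3) rose and 2 were not called, with the same counts after median log2 ratio scaling and quantile normalization. This tally was made after the values were seen and was not repeated with a library left out. Without WT replicate 2 the lower count of the whole list was 5. Beside -0.82 for Haus2, the log2 differences of Haus1, Haus4, Haus6 and Haus7 were small, at -0.14, -0.17, -0.12 and -0.11. Haus2 fell to 9.76 ± 0.499 FPKM in p53-deficient cells, against 18.01 ± 0.595 FPKM in WT cells (limma adjusted p = 8.45e-06), and Haus3 rose to 14.1 ± 0.35 FPKM, against 9.67 ± 0.492 FPKM in WT cells (limma adjusted p = 6.54e-05). Mzt1, a small subunit of the gamma-tubulin ring, fell to 21.8 ± 0.479 FPKM, against 26.8 ± 0.819 FPKM in WT cells (limma adjusted p = 0.000258). Mzt2 averaged 18.6 ± 1.71 FPKM in p53-deficient and 17.6 ± 0.605 FPKM in WT cells and did not pass (limma adjusted p = 0.329).

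**Figure D5:**
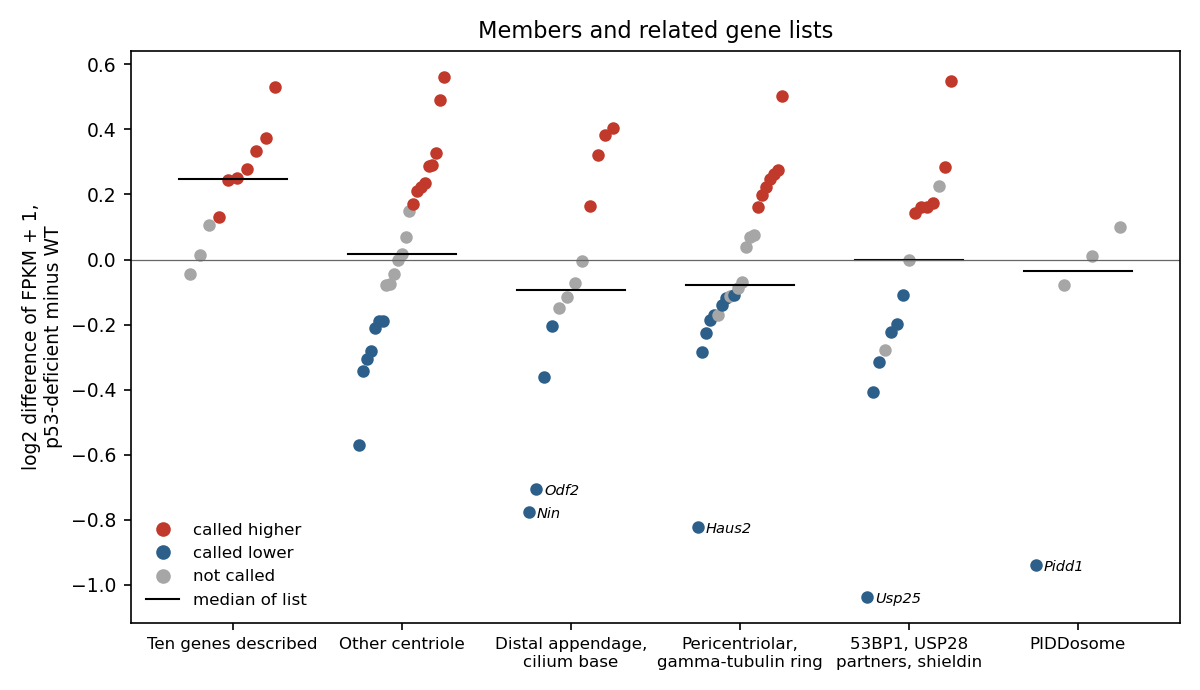
Log2 difference of FPKM + 1 (p53-deficient minus WT) for each tested gene of the 10 described and of 5 related lists, coloured by call, with list medians as black lines. The 10 genes have a median of 0.25, and the lowest points are Usp25 at -1.04 and Pidd1 at -0.94.

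Of 15 tested partners of 53BP1 and USP28, 6 were higher and 6 lower (40% each, beside 35.3% and 31.3% of all tested genes), with a median log2 difference of -0.002. After scaling by the median log2 ratio 2 were higher and 7 lower. Usp25, the paralogue of Usp28, fell to 1.60 ± 0.158 FPKM in p53-deficient cells, against 4.32 ± 0.212 FPKM in WT cells, a log2 difference of -1.04 (limma adjusted p = 1.62e-05). In the shieldin complex, which acts below 53BP1 at DNA breaks, calls went both ways. Shld2 fell to 2.81 ± 0.0671 FPKM, against 4.05 ± 0.186 FPKM in WT cells (limma adjusted p = 0.000298). Mad2l2 (REV7) rose to 15.0 ± 1.02 FPKM, against 9.91 ± 0.482 FPKM in WT cells (limma adjusted p = 0.000182). Shld1, named after its values were seen, averaged 1.99 ± 0.17 FPKM in p53-deficient and 2.65 ± 0.51 FPKM in WT cells. It was not called (limma adjusted p = 0.0556), though every p53-deficient library lay below every WT library. Rnf8, a ubiquitin ligase that helps bring 53BP1 to breaks, averaged 2.97 ± 0.53 FPKM in p53-deficient and 2.37 ± 0.0206 FPKM in WT cells and did not pass (limma adjusted p = 0.0793). Every p53-deficient library was nonetheless above every WT library for Rnf8. It was called higher in 3 of the 13 alternative settings that tested it (limma adjusted p from 0.0151 to 0.193 over the 13). The fibroblast markers were lower in the libraries in which Usp25 and Shld2 were lower, and their part in those falls was not tested.

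The PIDDosome, which reports surplus centrosomes to p53 by way of caspase-2 and MDM2, had 1 of 4 genes lower (25%, beside 31.3% of all tested genes) and 0 higher (beside 35.3%), with 0 higher at an unadjusted p under 0.05 in limma and 0 with voom weights. Pidd1, its scaffold and a known target of p53, measured 4.33, 3.99 and 4.01 FPKM in p53-deficient libraries, against 9.04, 8.69 and 8.64 FPKM in WT libraries. Every p53-deficient library lay far below every WT library, with a log2 difference of -0.94 (limma adjusted p = 4.01e-06). Ankrd26, which holds PIDD1 at the centriole, averaged 6.41 ± 0.335 FPKM in p53-deficient and 6.82 ± 0.0882 FPKM in WT cells and did not pass (limma adjusted p = 0.147). The remaining members, named after their values were seen, were the adaptor Cradd at 1.37 ± 0.327 FPKM in p53-deficient and 1.34 ± 0.0945 FPKM in WT cells, and the protease Casp2 at 3.62 ± 0.113 FPKM in p53-deficient and 3.31 ± 0.105 FPKM in WT cells, neither of them called (limma adjusted p = 0.939 and 0.0859). Ankrd26 was called lower after scaling by the median log2 ratio (limma adjusted p = 0.0148) and without p53-deficient replicate 3 (limma adjusted p = 0.0404), and Casp2 was called higher after quantile normalization (limma adjusted p = 0.00732).

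At the p53 end of both routes, Mdm2 averaged 13.9 ± 0.629 FPKM in p53-deficient and 49.8 ± 0.89 FPKM in WT cells, and Cdkn1a (p21) 9.66 ± 0.645 FPKM in p53-deficient and 87.6 ± 0.523 FPKM in WT cells, with log2 differences of -1.77 and -3.06 (limma adjusted p = 1.67e-07 and 4.72e-08). The fibroblast markers, 18 of 18 lower with a median log2 difference of -1.89, fell in the same libraries as Mdm2, Cdkn1a and Pidd1, and their part in these falls was not tested.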

How the data were processed

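The data are poly(A) RNA-seq values of 3 p53-deficient and 3 WT libraries. The authors deposited FPKM for every gene. HISAT2 2.0.5, featureCounts 1.5.0-p3 and mm10 are named in the submitters' processing notes, without their roles, and the handling of reads that match several places is not stated. Multiplied by the gene length in the table, 100% of the nonzero FPKM were whole multiples (tolerance 0.001) of the worth of 1 read, so reads could be rebuilt.

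Genes averaging 0.5 FPKM or more were put on the log2(FPKM + 1) scale. The groups were compared by limma 3.58.1 under R 4.3.3, two-sided, with a trended variance prior and Benjamini-Hochberg adjustment across 15144 genes. The added 1 understates changes of low genes. The 10 genes and the lists were chosen with earlier results of these data known, so no list was tested. Named were all 10 genes, up to 3 called genes of the largest difference and the most abundant uncalled gene of each list, opposite-strand genes starting within 1000 bases or sharing exon bases, and near-identical copies. Further list genes named after their values were seen are marked so in the text. Of the list symbols, Shld3 was not matched, and Deup1, Ccdc78, Cntln, Tubg2 and Pagr1a were too low to test.

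Overlaps came from GENCODE mouse release 21, in which 98.3% of the genes found had the deposited coordinates. Copies were sought with BLAST+ 2.17.0 (at least 90% identity over at least 500 bases). The fit was run on simulated reads with changes planted in far fewer genes than were called here. That run does not measure the errors of these calls. Other settings tried were adding 0.1 before logs, testing unfiltered genes, requiring 5 FPKM on average, median log2 ratio scaling, quantile normalization, no variance trend, a replicate block, voom weights on rebuilt reads and each library left out. Plots used matplotlib 3.10.9 (Python 3.11.15).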

Additional observations from a re-analysis of the deposited data

How the results depend on the processing

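Over the 14 alternatives Sass6, Stil, Cenpj, Cep152 and Tubg1 stayed higher and called wherever they were tested, with Sass6 between 0.46 and 0.71 on the log2 scale. Among genes of mean FPKM at least 5, 5944 genes were called, the counts were 3 higher of the 10 genes, 3 lower of the other centriole genes, and 2 higher and 2 lower of the appendage genes, since fewer genes were tested. Scaling by the median log2 ratio gave 1 of the 10 genes lower, 2 partners of 53BP1 and USP28 higher and 2 PIDDosome genes lower. Quantile normalization gave 1 of the 10 genes lower and 1 PIDDosome gene higher. The cause of these shifts was not tested. With any 1 library left out, 5 (without p53-deficient replicate 3) or 6 of the 10 genes were called higher, in place of 7. Pericentriolar genes lower then numbered 5 (without WT replicate 2) to 8, and PIDDosome genes lower 1 to 2 (without p53-deficient replicate 3). Same-numbered libraries did not deviate together (correlations of -0.03, 0.02 and -0.02 over 7752 genes). The labels do not say whether they were handled in pairs. With the number as a replicate block 9766 genes were called, with 7 of the 10 genes higher and 0 lower. Depth limits Sass6 and Cenpj most, which had the fewest pooled reads of the 10 genes.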
